A study of Mus musculus with 3 samples.

Results

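RNA sequencing of fibroblasts sorted from visceral adipose tissue of HFD-fed (high-fat diet) mice of WT (wild-type) genotype gave 3 libraries, and the vehicle library, 1 of the 3, is described here on its own, with no contrast. It was taken by its title, Veh, and its treatment label reads Control. The other libraries held fibroblasts of the same source after 24 h with recombinant mouse Osm (oncostatin M, a cytokine of the interleukin 6 family) or recombinant human TGF-beta1 (transforming growth factor beta 1), each at 3 ng/mL. All 3 conditions share the genotype, the diet and the sort: stromal vascular fraction cells, the non-fat cells freed when adipose tissue is digested, were passed through a magnetic sorter and those negative for CD45 (leukocytes), CD31 (endothelium) and Ter119 (red cells) were kept. The gate is thus defined by what it removes and used no positive fibroblast marker. The sources used here give no time for the vehicle library, no age or sex of the mice, no number of animals behind a library and no time in culture before treatment.

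Adipose fibroblasts, also called adipose stromal or progenitor cells, build and remodel the collagen-rich matrix that surrounds fat cells, and some of them can become fat cells. They sense growth factors, cytokines and the matrix through surface receptors, and they secrete chemokines and growth factors that act on macrophages and blood vessels. In obesity the visceral depot gains matrix and immune cells, and fibroblasts are the main producers of that matrix.

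Levels are given in FPKM, fragments per kilobase of gene length scaled to the library's size, as deposited, so that genes of different length can be set side by side. With 1 library per condition there is no spread between cultures, and the intervals are exact 95% Poisson limits of a gene's read count carried to FPKM. They cover counting error only, and no molecular identifiers are described, so repeat reads of 1 molecule may make them too narrow. At 18336068 counts in the vehicle library (17319872 with Osm, 18533741 with TGF-beta1), a count of 100 has limits 18.6% below and 21.6% above it, and a count of 1000 limits of 6.10% and 6.40%. A gene at or under the floor of 3 counts, which is 0.163 FPKM for a gene of 1 kb, is called not detected above the floor. Protein-coding genes took 98.4% of the counts and ribosomal RNA genes 0.232%.

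Of 21970 protein-coding genes, 10325 (47%) had at least 1 FPKM, 4199 (19.1%) at least 10 FPKM, 405 (1.84%) at least 100 FPKM and 13 at least 1000 FPKM. At the other end 8755 (39.8%) were at or under the floor, 7421 of them with no count, and the median protein-coding gene stood at 0.587 FPKM. These shares are the background for every list below. "High" refers to at least 100 FPKM and "low" to under 10 FPKM. FPKM divides by the gene length in the deposited table, which for 30.7% of the genes at 10 FPKM or more was over 1.5 times the longest transcript in GENCODE M21. Levels per longest transcript, with no rescaling, are given where they move a named gene past 10 FPKM and for some of the orders described. By that length the count of members at 10 FPKM or more was higher in 22 of 62 gene lists, by 1 to 5 members.

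The highest gene was mt-Co1 at 3964 FPKM, a mitochondrially encoded subunit of cytochrome oxidase, followed by the translation elongation factor Eef1a1 at 2837 FPKM. The 20 highest genes held 5 mitochondrially encoded genes, 2 ribosomal protein genes (Rplp1 at 1392 FPKM and Rplp0 at 893 FPKM) and 4 matrix genes. Those 4 were Fn1 (fibronectin, which bridges collagen and integrins) at 1427 FPKM (1422 to 1432), Sparc (a collagen-binding glycoprotein) at 1049.5 FPKM (1042 to 1057), Bgn (biglycan, a small proteoglycan) at 1036 FPKM (1031 to 1042) and Fbln2 (fibulin 2, an elastic fibre and basement membrane protein) at 1023 FPKM (1018 to 1029). Their intervals placed Fn1 above the other 3, while those of Sparc and Bgn overlapped. Per longest transcript Bgn would stand at 2613 FPKM, above Fn1 at 2006, with Sparc at 1729 FPKM, and Dcn would rank 17.

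The rest of the 20 highest included lysosomal genes, Psap (prosaposin) at 1179 FPKM and Lamp1 (a lysosomal membrane protein) at 831 FPKM, the ferritin light chain gene Ftl1 at 1649 FPKM, Aebp1 (a secreted collagen-binding protein) at 1101 FPKM, Lgals1 (galectin 1) at 934 FPKM and S100a11 at 835 FPKM. A lipid gene stood among them: Scd1, the desaturase that makes monounsaturated fatty acids, was at 1177 FPKM, and its paralogue Scd2 was next below the 20 at 803 FPKM. Other genes of fatty acid and cholesterol synthesis were Acly at 283 FPKM, Insig1 at 227 FPKM, Hmgcs1 at 145 FPKM and Fasn at 131 FPKM. Genes with near-identical copies are uncertain, because reads may be split or lost between copies. At least 20% of sampled 50-base windows occurred in another gene's transcript for 95 of the 405 genes at 100 FPKM or more, among them mt-Co1, Eef1a1, Ftl1, Rplp1, Rplp0 and S100a11. Gapdh, often used as a reference gene, shared 81.9% of its windows and was listed at 14.1 FPKM, against 401 FPKM for Aldoa, another enzyme of glycolysis.

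The 10 highest genes held 7.56% of the summed protein-coding FPKM, the 20 highest 11.3% and the 100 highest 26.5%. Matrix and matrix-related genes (234 listed, called matrix genes below) held 10.8% of that sum and 83 ribosomal protein genes 7.33%. Ligands (282 listed) held 2.54%, receptors (231 listed) 1.83% and the listed transcription factors (215) 0.957%. The matrix group counts collagen-modifying genes, matrix-degrading genes including lysosomal cathepsins, protease inhibitors and contractile genes. Their lists summed to 3370, 4128, 3118 and 1932 FPKM of the group's 26352 FPKM. The share of structural matrix genes alone was not computed, so it is not set against the ribosomal share. Near-identical copies make the ribosomal sum uncertain. At least 10 FPKM was reached by 143 of 234 matrix genes (61.1%), 72 of 231 receptors (31.2%), 55 of 215 transcription factors (25.6%) and 65 of 282 ligands (23.0%), beside 19.1% of all protein-coding genes. The medians were 25.9 FPKM for matrix genes, 2.66 for transcription factors, 1.80 for receptors and 0.5 for ligands.

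The fibroblast label was checked against 4 markers. Col1a1 (the alpha 1 chain of type I collagen, chr11:94827050-94843868) was at 653 FPKM (649 to 658) and ranked 29 of the protein-coding genes. Dcn (decorin, a collagen-binding proteoglycan, chr10:97315471-97354005) was at 340.1 FPKM (337 to 344) and ranked 81. Ly6a (Sca-1, a surface marker of adipose progenitors, chr15:74866726-74869880) was at 321 FPKM (314 to 329) and ranked 87. Pdgfra (the PDGF receptor that marks adipose fibroblasts, chr5:75312953-75358876) was at 113 FPKM (111 to 114) and ranked 346. Positions are in mm39, the build that the submitters' processing notes name. All 4 were high, and the order depended on the length used: per longest transcript Dcn would be at 1129 FPKM, above Col1a1 at 723 FPKM. In the Osm and TGF-beta1 libraries Col1a1 was at 611 and 1227 FPKM, Dcn at 299.9 and 141 FPKM, Ly6a at 333 and 84.7 FPKM and Pdgfra at 112 and 69.7 FPKM. In the TGF-beta1 library Ly6a was thus under 100 FPKM and Col1a1 above its vehicle level.

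Of a wider list of 24 fibroblast genes, 22 reached 10 FPKM and 15 reached 100 FPKM, with a summed level of 5928 FPKM. The list was led, after Col1a1, by Col3a1 at 629 FPKM (626 to 633), Gsn (gelsolin, which severs actin filaments) at 573 FPKM, Serpinf1 (PEDF) at 535 FPKM, Vim (vimentin) at 490.4 FPKM and Pdpn (podoplanin, a surface glycoprotein) at 455 FPKM. Pdgfrb, the other PDGF receptor, was at 257 FPKM. Other surface markers of the list ran from high to low levels. Itgb1 was at 277, Eng at 51.2 and Cd44 at 26.3 FPKM. Thy1 (CD90) was at 13.9 FPKM and Cd34 at 10.7 FPKM, 24 and 30.6 per longest transcript. The members under 10 FPKM were Fap, a surface protease of activated fibroblasts, at 4.09 FPKM and Nt5e (CD73) at 0.689 FPKM.

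Adipose progenitors are commonly divided into an interstitial, Dpp4-positive population and a committed preadipocyte population. Of 14 interstitial progenitor genes 5 reached 10 FPKM: Anxa3 at 44.4, Aldh1a3 at 35.6, Ly6c1 at 35.1 (uncertain, 36.2% of windows shared), Cd55 at 22.4 and Dpp4 at 10.3 FPKM (9.72 to 10.9). Pi16, a defining gene of that population, was low at 2.67 FPKM (2.38 to 2.98), and Bmp7 had 2 counts. Of 13 committed preadipocyte genes 8 reached 10 FPKM, led by Apoe at 186, Lpl (lipoprotein lipase) at 145, the chemokine gene Cxcl14 at 97.1, the lipid droplet gene Plin2 at 84.7, Col15a1 at 57.3 and Bst2 at 34.7 FPKM. The members of the same list under 10 FPKM included Pparg, the master regulator of fat cell formation, at 8.64 FPKM (7.87 to 9.45). The others were the fatty acid carrier Fabp4 at 4.87, Zfp423 at 1.49, the fatty acid receptor Cd36 at 1.14 and Dlk1 (Pref-1) at 0.779 FPKM. Per longest transcript Fabp4 would be at 24.4 and Pparg at 12 FPKM, both past 10 FPKM, and 10 of the 13 would reach it. Of 7 genes of the adipogenesis-regulatory population 4 reached 10 FPKM, among them Mgp at 396 and F3 (CD142, tissue factor) at 178 FPKM, while Clec11a was at 2.87 and Fmo2 at 0.669 FPKM. Of 11 genes listed for fibroinflammatory progenitors 8 reached 10 FPKM and 7 reached 100 FPKM. Among these were Fn1, Timp1, Lox and Acta2, which are also in the matrix lists below. Il6 was at 2.8 FPKM and Cxcl10 had no count. The list summed to 3753 FPKM, of which Fn1 alone gave 1427 FPKM. The committed preadipocyte list summed to 653, the adipogenesis-regulatory list to 615 and the interstitial list to 168 FPKM. The lists differ in length and some hold general matrix genes, so these sums do not rank the populations. In bulk RNA a mixture of these populations and 1 population with an intermediate profile cannot be told apart, nor can fewer cells and less RNA per cell.

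Markers of the cell types that the sort was meant to remove were mostly under 1 FPKM, with Tek, Cd68, Cd14 and Csf1r above it. Of 20 leukocyte genes 13 were at or under 3 counts and 9 had no count, including Ptprc (the CD45 gene; its floor is 0.00891 FPKM), the macrophage genes Adgre1 and Itgam and the T cell gene Cd3e. The list summed to 13.6 FPKM, of which Cd68, a lysosomal glycoprotein gene, gave 7.09 and Cd14, a lipopolysaccharide co-receptor gene, 3.3 FPKM. Csf1r gave 1.47 FPKM, uncertain because it overlaps Hmgxb3, and Lyz2 had 19 counts. Of 12 endothelial genes 6 were at or under the floor, beside 39.8% of all protein-coding genes. Among them Pecam1 (the CD31 gene) had 2 counts and Tie1, Erg, Cldn5 and Robo4 had none. Tek, the angiopoietin receptor gene, was the highest at 10.3 FPKM (9.63 to 11) of a list sum of 11.5 FPKM. Also above the floor were Vwf with 114 counts (0.386 FPKM), Egfl7 with 25, Cdh5 with 22, Emcn with 7 and Kdr with 5. Of 9 erythroid genes, all 9 were at or under the floor, with Klf1 at 2 counts and the 4 listed globin genes at 0. The zeros of Itgam and of the globin genes are uncertain, since Itgam shared 72.2% of its windows and the globin genes 57.6% to 86.3%.

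Other lineages that the gate could hold were checked in the same way. Of 14 mesothelial genes no member reached 10 FPKM, and the sum was 9.11 FPKM. Wt1, a mesothelial and visceral stromal transcription factor, made up most of it at 5.99 FPKM (5.55 to 6.45), 12 per longest transcript and then past the bound, and Msln (mesothelin) had 10 counts, 0.177 FPKM (0.0851 to 0.326). Of 12 mural (pericyte and smooth muscle) genes the highest were Ndufa4l2 at 24.7 FPKM, uncertain because it overlaps the more abundant Shmt2, and Smtn (smoothelin) at 20.5 FPKM, whereas Rgs5 was at 0.0718 FPKM (0.0263 to 0.156) and Cspg4 (NG2) at 0.716 FPKM. Of 16 fat cell genes 8 were at or under the floor, including Lep, Plin1, Cidec, Cfd and Ucp1 with no count, and Adipoq (adiponectin) had 5 counts. Lpl alone gave 145 of their 175.7 FPKM, and committed preadipocytes are known to express it too. Spp1 (osteopontin) at 185 FPKM gave most of the 198.3 FPKM of 11 bone and cartilage genes, of which 6 had no count. Schwann cell and neural genes summed to 2.10 FPKM, with Sox10 at 0, epithelial genes to 0.572, skeletal muscle genes to 0.789 and lymphatic endothelial genes to 0.321 FPKM. Of 5 tendon genes Tnc at 19.2 and Egr1 at 13.9 FPKM gave most of 33.5 FPKM, and Tnmd had 2 counts.

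**Figure D1:**
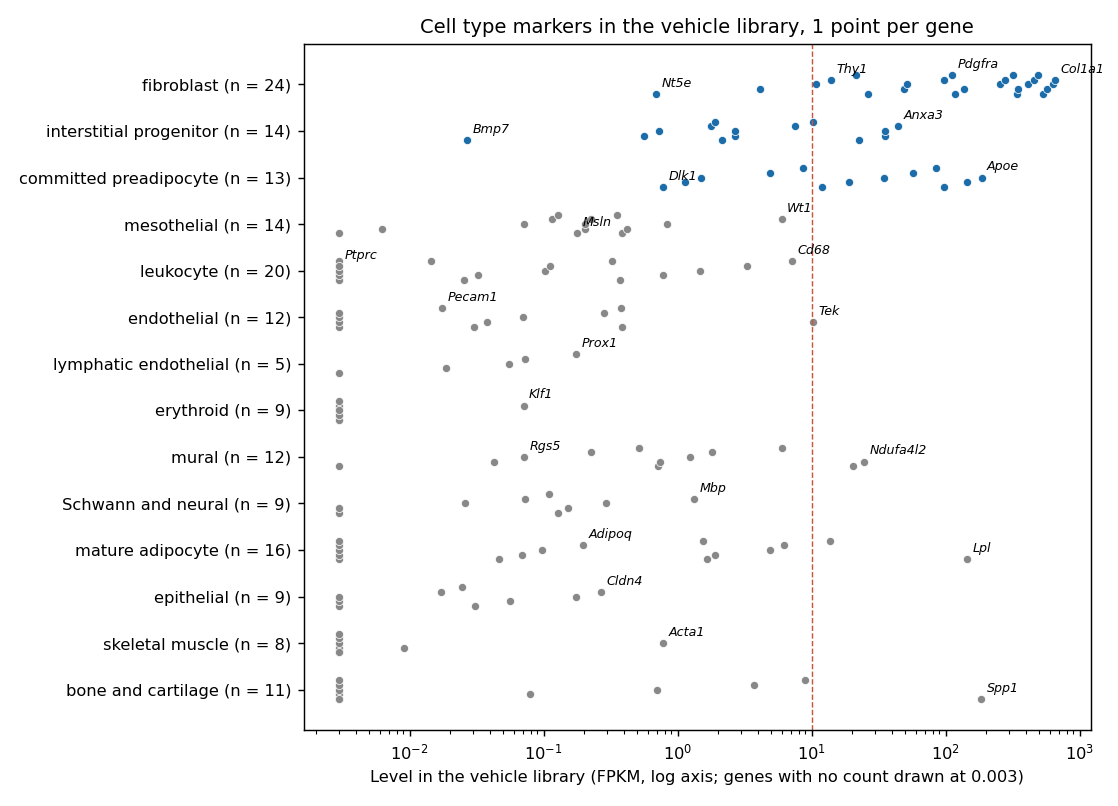
Level of each marker gene in the vehicle library in FPKM on a log axis, 1 point per gene, by cell type list; blue marks the fibroblast and progenitor lists, grey the other cell types, and the dashed line 10 FPKM. Of the 24 fibroblast genes 22 lie right of the line, while no mesothelial, leukocyte or erythroid gene does, and the right-hand points of the fat cell and bone lists are Lpl at 145 and Spp1 at 185 FPKM.

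Matrix genes, counted with the related genes named above, held the largest share of the summed level among the groups listed. Of 11 fibrillar collagen genes, which form the tensile fibrils, 6 reached 10 FPKM. By the deposited length Col1a1 at 653 and Col3a1 at 629 FPKM led, then Col1a2 at 346 FPKM (344 to 349), Col5a2 at 164, Col5a1 at 109 and Col5a3 at 33.6 FPKM. The next gene of the list, Col27a1, was at 0.342 FPKM, and the cartilage collagen Col2a1 had no count. The type I chains, which share a triple helix, stood at a ratio of 1.89 of Col1a1 to Col1a2, and at 0.898 per longest transcript, by which Col3a1 at 1110.4 would lead Col1a2 at 805 and Col1a1 at 723 FPKM.

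Among 12 basement membrane and network collagens the type IV chains Col4a1 at 222 FPKM (219.9 to 225) and Col4a2 at 192 FPKM (189 to 194) led. The 2 genes lie head to head and overlap, so part of their reads cannot be assigned without strand. Col4a3 and Col4a4, chains of specialised basement membranes, were at 0.06 and 0.179 FPKM. Col15a1 was at 57.3, Col8a1 at 40.9, Col18a1 at 20.6 and Col4a5 at 11.7 FPKM. Of 16 genes of collagen VI and the fibril-associated collagens 6 reached 10 FPKM, with Col6a1 at 82.9, Col6a3 at 75.7, Col12a1 at 39.3, Col6a2 at 37.6, Col16a1 at 24 and Col14a1 at 19.2 FPKM. Col9a1, Col9a2, Col19a1 and Col22a1 had no count, and of 5 transmembrane and related collagens the highest was Col23a1 at 1.27 FPKM.

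Laminins build the basement membrane from an alpha, a beta and a gamma chain. The highest of each kind were Lamc1 at 249 FPKM (247 to 252), Lamb2 at 124 FPKM (122 to 126) with Lamb1 at 84.5, and Lama4 at 59.9 with Lama2 at 32.4 FPKM. Per longest transcript Lamb1 at 145 would stand above Lamb2 at 134 FPKM. The epithelial chains Lama3, at 0.0253 FPKM, and Lamb3, with 2 counts, were low. The nidogen Nid1, which links laminin to type IV collagen, was at 258 FPKM and perlecan (Hspg2) at 123 FPKM.

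Of 18 elastic fibre genes 15 reached 10 FPKM. Fbln2 led, followed by Fbn1 (fibrillin 1, the microfibril scaffold) at 405 FPKM (402 to 408), Efemp2 (fibulin 4) at 116 and Mfap5 at 98.1 FPKM. Elastin itself (Eln), the core of the mature fibre, was at 10.6 FPKM (10.04 to 11.1), 22.2 per longest transcript. Fbn2, the largely embryonic fibrillin, was at 0.21 FPKM (0.156 to 0.276). The latent TGF-beta binding proteins, which store TGF-beta in the matrix, ran from Ltbp2 at 72.2 and Ltbp3 at 56.6 to Ltbp4 at 19.1 and Ltbp1 at 10.6 FPKM.

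Of 38 matrix glycoproteins and related secreted proteins 25 reached 10 FPKM. Below Fn1 and Sparc came Igfbp7 at 505, the thrombospondin Thbs2 at 483, Mgp at 396, Ccn2 (CTGF, a TGF-beta and YAP target) at 345 and Thbs1 at 259 FPKM. Postn (periostin) was at 119 FPKM, 323 per longest transcript, and Tnc (tenascin C) at 19.2 FPKM. Cthrc1, a gene of fibrotic fibroblasts, was low at 2.01 FPKM (1.53 to 2.6) and Comp at 0.11 FPKM (0.0404 to 0.239). Of 30 proteoglycan and hyaluronan synthase genes 15 reached 10 FPKM: after Bgn and Dcn came the syndecan Sdc2 at 137, Lum (lumican) at 117, Prelp at 66.5 and Sdc1 at 65.1 FPKM. Fmod (fibromodulin) was at 3.04 FPKM, the 3 hyaluronan synthases between 0.23 and 2.16 FPKM, and the cartilage genes Acan and Hapln1 and the corneal gene Kera had no count.

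**Figure D2:**
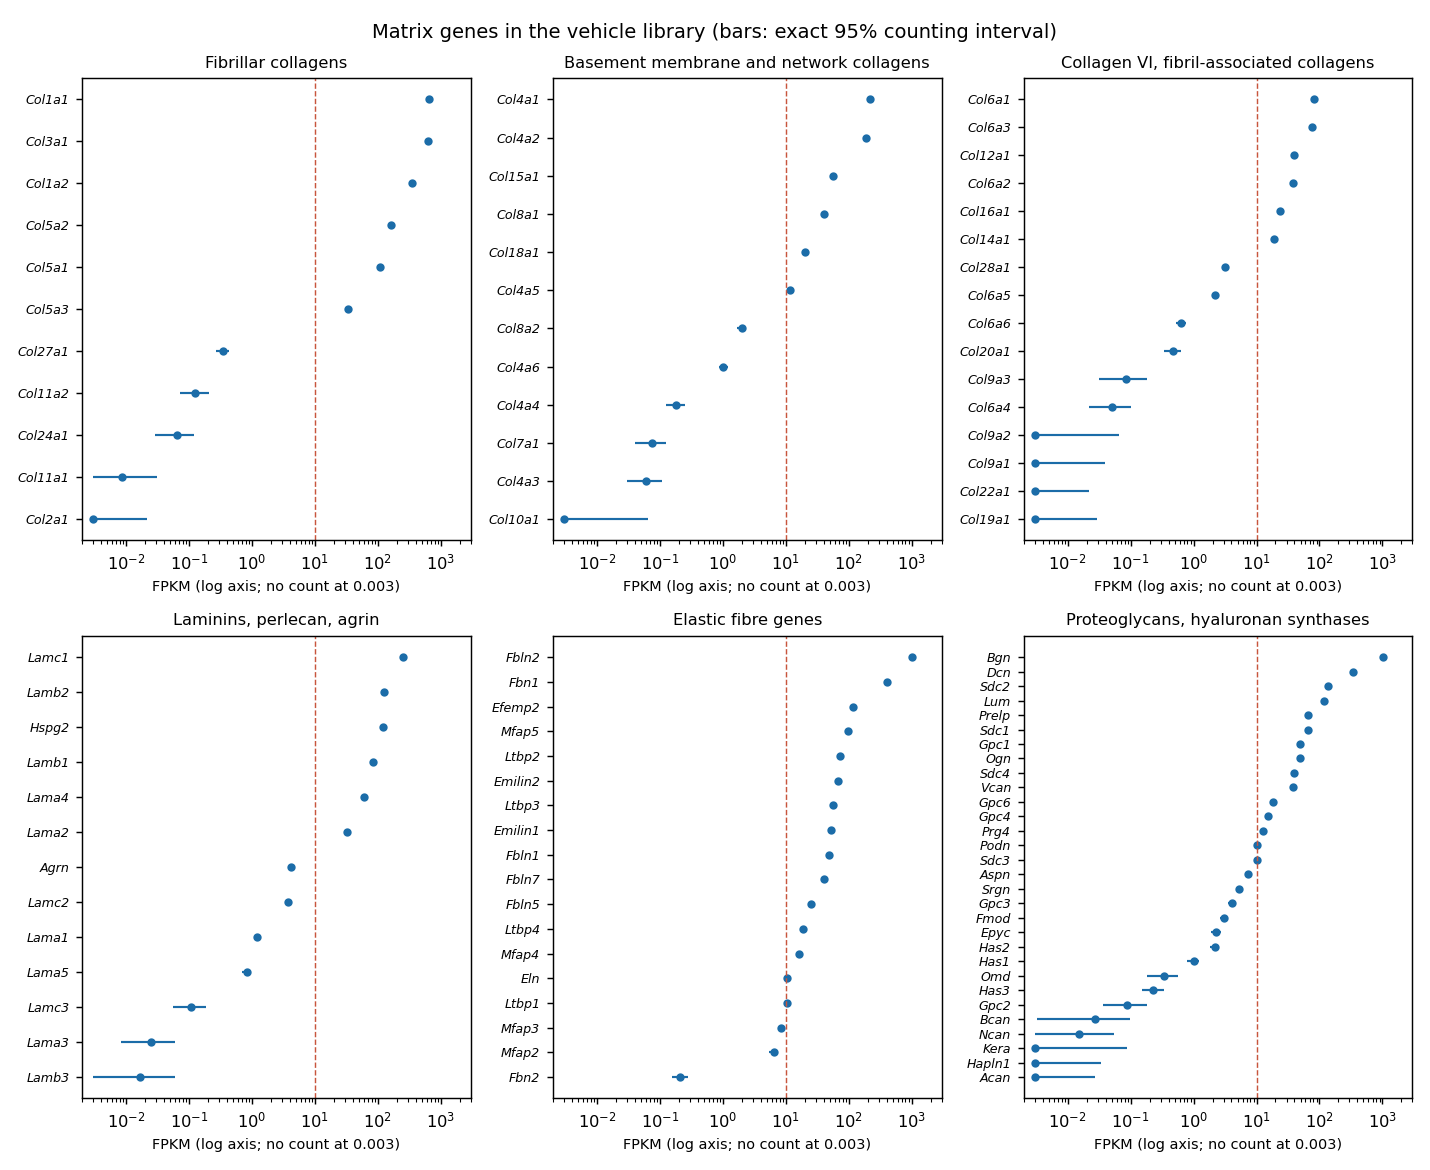
Level of each gene of 6 matrix lists in the vehicle library in FPKM on a log axis, with its exact 95% counting interval as a bar and 10 FPKM as a dashed line; genes with no count are drawn at 0.003. Fibrillar collagens fall into 6 genes between 33.6 and 653 FPKM and 5 genes under 1 FPKM, while elastic fibre genes have only Fbn2 under 1 FPKM.

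Of 26 collagen-modifying genes 20 reached 10 FPKM and 7 reached 100 FPKM. They included Serpinh1 (HSP47, the collagen chaperone) at 743 FPKM (735 to 751), P4hb (a subunit of prolyl hydroxylase) at 603, the cross-linking oxidases Lox at 559 FPKM (554 to 564) and Loxl1 at 411, the procollagen N-proteinase Adamts2 at 155 and P4ha1 at 136 FPKM. The transglutaminase Tgm2 was at 12.7 and Loxl4 at 6.39 FPKM.

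Of 32 matrix-degrading genes 19 reached 10 FPKM and 12 reached 100 FPKM. Mmp3 (stromelysin 1) was at 638 FPKM (629.6 to 647), Mmp2 (gelatinase A) at 611 FPKM (605 to 617), the lysosomal cathepsins Ctsd at 588 (uncertain, 36.5% of windows shared), Ctsb at 496, Ctsk at 327 and Ctsl at 285 FPKM. Per longest transcript Mmp2 at 669 would stand above Mmp3 at 638 FPKM. Mmp14, the membrane protease that activates Mmp2, was at 182 FPKM. Mmp9 (gelatinase B) had 1 count and Mmp7 none. Of 13 inhibitors 11 reached 10 FPKM, among them Timp1 at 681 FPKM (668 to 694), Serpinf1 at 535, Cst3 (cystatin C, a cathepsin inhibitor) at 409, Serping1 at 396 and Timp2 at 282 FPKM. The 4 Timp genes ran in order Timp1, Timp2, Timp3 (28.9 FPKM) and Timp4 (3 counts), with separate intervals between the first 3.

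Contractile and actin cytoskeleton genes, only some of which mark myofibroblasts when high, reached 10 FPKM in 15 of 21 cases. Acta2 (smooth muscle actin) was at 203 FPKM (199 to 207), Tagln (transgelin) at 160.3, Tpm4 at 301, Myh9 (non-muscle myosin) at 262 and Flna (filamin A) at 194 FPKM. The differentiated smooth muscle genes Cnn1 at 0.735 FPKM (0.518 to 1.01) and Myh11 at 1.23 FPKM (1.05 to 1.43) were low. In the TGF-beta1 library Acta2 stood at 605 FPKM and in the Osm library at 191 FPKM, so its vehicle level passed 100 FPKM without TGF-beta1 and was under the level with it.

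Receptors were fewer and lower than matrix genes, with 13 of 231 at 100 FPKM or more and 46 at or under the floor. Of 26 integrin genes 7 reached 10 FPKM: the shared beta 1 chain Itgb1 at 277 FPKM (273 to 280.3), Itgb5 at 211, the fibronectin receptor chain Itga5 at 78.7, the collagen receptor chain Itga11 at 63.8, Itgav at 32.3, Itga9 at 13.8 and Itgb3 at 13.3 FPKM. Of the other collagen-binding alpha chains Itga1 was at 0.997, Itga2 at 0.465 and Itga10 at 0.241 FPKM (uncertain, 31.8% of windows shared), so Itga11 was the highest of the 4 with an interval apart from theirs. The laminin-binding Itga3 was at 0.914, Itga6 at 0.226 and Itga7 at 0.381 FPKM. Among leukocyte chains Itgal, Itgam (uncertain, 72.2% of windows shared) and Itgae had no count and Itgax had 9 counts. The leukocyte beta chains were detected at low levels, Itgb2 with an interval of 2.25 to 3.12 FPKM and Itgb7 with 1.14 to 1.82 FPKM.

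Receptors for both stimuli of the study were detected in the vehicle library. For TGF-beta, the type I receptor Tgfbr1 was at 36 FPKM (34.9 to 37.1), the type II receptor Tgfbr2 at 72.8 FPKM (71.4 to 74.2), the co-receptors Tgfbr3 (betaglycan) at 74.6 FPKM (73.1 to 76.2) and Eng (endoglin) at 51.2 FPKM. In that list 9 of 14 reached 10 FPKM, including the BMP receptors Bmpr1a at 33.3 and Bmpr2 at 10.4 FPKM, while Acvr1c and Amhr2 were not detected above the floor. For Osm, the specific chain Osmr was at 40.3 FPKM (39.4 to 41.1), 88.8 per longest transcript, and the shared chain Il6st (gp130) at 63.4 FPKM (62.3 to 64.5). Lifr, which pairs with gp130 for leukaemia inhibitory factor, was at 8.02 FPKM (7.63 to 8.43), and Il6ra, the interleukin 6 chain, at 2.77 FPKM (2.52 to 3.04). The 3 chains above therefore ran Il6st, Osmr, Lifr by the deposited length with no overlap of intervals, and Osmr would stand above Il6st (81.1 FPKM) per longest transcript.

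Of 45 cytokine receptor genes 19 reached 10 FPKM. The TNF receptor Tnfrsf1a was at 111, Tnfrsf12a (the TWEAK receptor) at 70.6 (139 per longest transcript, above Tnfrsf1a at 134), Ltbr at 43.3, Tnfrsf1b at 38.8, the interleukin 1 receptor Il1r1 at 37.1 and the interferon gamma receptor Ifngr1 at 29.7 FPKM. Il11ra1 at 23.5 FPKM is uncertain, with 46.9% of windows shared. Lepr (the leptin receptor), Il7r, Il2rg (uncertain, 41.7% of windows shared) and Il22ra1 had 1 count each, and Csf3r, Il10ra and Il17rb none.

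Of 48 receptor tyrosine kinase genes 12 reached 10 FPKM and 7 had no count. Axl, the receptor of Gas6, was at 312 FPKM (309 to 316), Pdgfrb at 257 FPKM (253 to 259.7), the collagen receptor Ddr2 at 136 FPKM (134 to 138), Pdgfra at 113, Fgfr1 at 103 FPKM (102 to 105) and Ryk at 48.8 FPKM. Pdgfrb was thus above Pdgfra beyond counting error, and stayed so in the Osm (251 and 112 FPKM) and TGF-beta1 (241 and 69.7 FPKM) libraries. Egfr was at 41.1, the IGF1 receptor Igf1r at 6, the insulin receptor Insr at 4.7 and Met, the HGF receptor, at 1.2 FPKM. Among the FGF receptors Fgfr1 stood alone, with Fgfr2 at 0.505, Fgfr3 at 0.0836 and Fgfr4 at 0 FPKM. Flt1 was at 2.39 and Kdr, the main endothelial VEGF receptor, at 0.0301 FPKM.

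Of 22 Wnt, Notch and Hedgehog receptor genes 6 reached 10 FPKM: Fzd1 at 106 FPKM (104 to 108), Fzd2 at 24.8, the co-receptor Lrp6 at 19.2, Notch2 at 19, Fzd4 at 15.7 and Smo at 13.5 FPKM. The stem cell markers Lgr5 and Lgr6 had 1 and 3 counts. Of 46 G protein-coupled receptor genes 10 reached 10 FPKM and 16 were at or under the floor. The thrombin receptor F2r was at 109 FPKM (107 to 112), the adhesion receptor Adgrd1 at 80.7, Mrgprf at 37.5, the chemerin receptor Cmklr1 at 33.3, the lysophosphatidate receptor Lpar1 at 26.6 and the prostacyclin receptor Ptgir at 26.1 FPKM. The beta adrenergic receptors that drive lipolysis in fat cells include Adrb1 and Adrb3, which had 1 count each.

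Of 15 innate sensors 3 reached 10 FPKM: Nod1 at 25.7, Sting1 at 18.9 and Tlr4, the lipopolysaccharide receptor, at 16.5 FPKM. Tlr2 was at 4.17 FPKM, and Nlrp3, Tlr8 and Tlr9 had no count. Of 15 lipoprotein and scavenger receptors 6 reached 10 FPKM. The endocytic receptor Lrp1 was at 505 FPKM (502 to 507), the highest of all 231 receptors, and Scarb2 was at 117 and the collagen-uptake receptor Mrc2 at 114 FPKM. The macrophage scavenger receptor Msr1 had no count.

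Among ligands, the TGF-beta superfamily had 7 of 27 genes at 10 FPKM or more. They were the activin chains Inhbb at 37.2 FPKM (35.9 to 38.6) and Inhba at 36 FPKM (34.9 to 37.1), whose intervals overlapped, Gdf6 at 27.1, Tgfb1 at 22.6 FPKM (21.6 to 23.5) (52.3 per longest transcript), Gdf15 at 17.3, Tgfb3 at 13.9 and Gdf10 at 11.8 FPKM. The bone morphogenetic proteins Bmp2 and Bmp4 were at 0.337 and 0.992 FPKM. Secreted binding proteins of this family reached higher levels than the ligands, with Fstl1 at 409 FPKM (405 to 414), Bmper at 146, Nbl1 at 107 and Twsg1 at 47.7 FPKM.

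No Wnt ligand of 19 reached 10 FPKM, and 9 were at or under the floor. Wnt2 was highest at 7.57 FPKM (6.76 to 8.46), then Wnt9a at 2.42 FPKM. Of 14 secreted Wnt modulators 5 reached 10 FPKM: Sfrp1 at 106 FPKM (103 to 108), Dkk3 at 31.2, Sfrp2 at 23.2, the agonist Rspo1 at 11.5 and Frzb at 10.2 FPKM. The other 9 were under 1 FPKM, and 6 of the 14 were at or under the floor. Of 22 FGF genes Fgf2 was at 37.4, Fgf7 (keratinocyte growth factor) at 31.8 and Fgf18 at 11.3 FPKM, and 13 were at or under the floor. No EGF family ligand of 11 reached 10 FPKM, and Ereg was highest at 6.68 FPKM.

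Among 15 vascular growth factor and PDGF genes, Vegfd was at 109 FPKM (106 to 112), Angptl2 at 63.4, Vegfa at 63.2 FPKM (61.5 to 65) and Vegfb at 35.1 FPKM, whereas Pdgfa was at 3.61 and Pdgfb at 0.0653 FPKM (0.0212 to 0.152). Of 20 IGF, HGF and neurotrophin family genes and binding proteins 10 reached 10 FPKM. The binding proteins Igfbp7, Igfbp6 at 271 and Igfbp4 at 85.6 FPKM led, with Gas6 at 106 FPKM (103 to 109). Igf1, a growth factor that adipose stroma is known to secrete, was at 21.3 FPKM (20.6 to 22), and Igf2 (uncertain, 75.9% of windows shared) and Ptn had no count.

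Of 27 interleukin and colony-stimulating factor genes only 2 reached 10 FPKM, a share of 7.41% against 19.1% of all protein-coding genes. Csf1, the macrophage growth factor, stood far above the rest at 416 FPKM (412 to 420.4), ranked 61. Il34, the other ligand of the same receptor, was at 10.8 FPKM (9.72 to 11.9). Il11 was at 5.64, Il33 at 4.54 and Il6 at 2.8 FPKM (2.33 to 3.34), while Osm had no count (its floor is 0.0718 FPKM) and Il1b had 1 count. Of 17 TNF family ligands only Tnfsf12 passed 10 FPKM, at 13.6 FPKM (uncertain, 48.9% of windows shared), and Tnf had 1 count.

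Of 28 chemokines 9 reached 10 FPKM, 4 of them 100 FPKM, and 13 were at or under the floor, 11 with no count. Ccl8 was at 320.4 FPKM (309 to 332), the eosinophil chemokine Ccl11 (eotaxin) at 138 FPKM (133 to 143), Cxcl12, the ligand of Cxcr4, at 106 FPKM (104 to 108), Cxcl14 at 97.1, the monocyte chemokines Ccl2 at 47.8 FPKM (44.9 to 50.9) and Ccl7 at 47.3 FPKM (43.9 to 51), and Cxcl16 and Cxcl5 at 16 and 15.9 FPKM. Mif at 297 FPKM is uncertain, with 52% of windows shared. The interferon-induced Cxcl10 and Cxcl11 had no count and Cxcl9 2 counts. In the TGF-beta1 library Ccl8 was at 149 and Ccl11 at 43.3 FPKM, and in the Osm library at 349.9 and 151 FPKM.

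Of 24 complement and acute-phase genes 11 reached 10 FPKM. The inhibitor Serping1 was at 396 and C3, the central complement component, at 169 FPKM (166 to 172). C4b at 294, C1s1 at 241 and C1ra at 60.7 FPKM have near copies and shared 35.5%, 24.1% and 51% of their windows. C1qa and C1qb, made by macrophages, had no count. Of 21 adipokines 4 reached 10 FPKM: Ccdc80 at 281, Metrnl (meteorin-like) at 72, Nampt at 18 and C1qtnf6 at 13 FPKM. Of 28 axon guidance ligands 4 did, led by Slit3 at 129 FPKM (127 to 131), then Ntn1 at 23, Efnb1 at 13.9 and Slit2 at 10.3 FPKM.

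Ligands and receptors were set side by side for 33 pairs. In 6 pairs both sides reached 10 FPKM, namely Gas6 at 106 with Axl at 312, Fgf2 at 37.4 with Fgfr1 at 103, Tgfb1 at 22.6 with Tgfbr1 at 36 and Tgfbr2 at 72.8, Inhba at 36 with Acvr2a at 16.3, and Cxcl12 at 106 with the decoy receptor Ackr3 at 13.7 FPKM. In 5 pairs the ligand reached 10 FPKM with its receptor under 1 FPKM: Cxcl12 with Cxcr4 at 0.15, Ccl2 with Ccr2 at 0, Fgf7 with Fgfr2 at 0.505, Vegfa with Kdr at 0.0301 and Vegfd with Flt4 at 0.0727 FPKM. These receptors are known mainly from leukocytes, epithelium and endothelium. In 4 pairs the receptor reached 10 FPKM with its ligand under 1 FPKM, namely Osm with Osmr and with Il6st, Pdgfb with Pdgfrb at 257 and Bmp4 with Bmpr1a at 33.3 FPKM. Csf1 at 416 FPKM faced Csf1r, the receptor of macrophages, at 1.47 FPKM, a value that is uncertain because Csf1r overlaps Hmgxb3. A pair of levels in 1 culture says nothing of protein or of signalling.

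**Figure D3:**
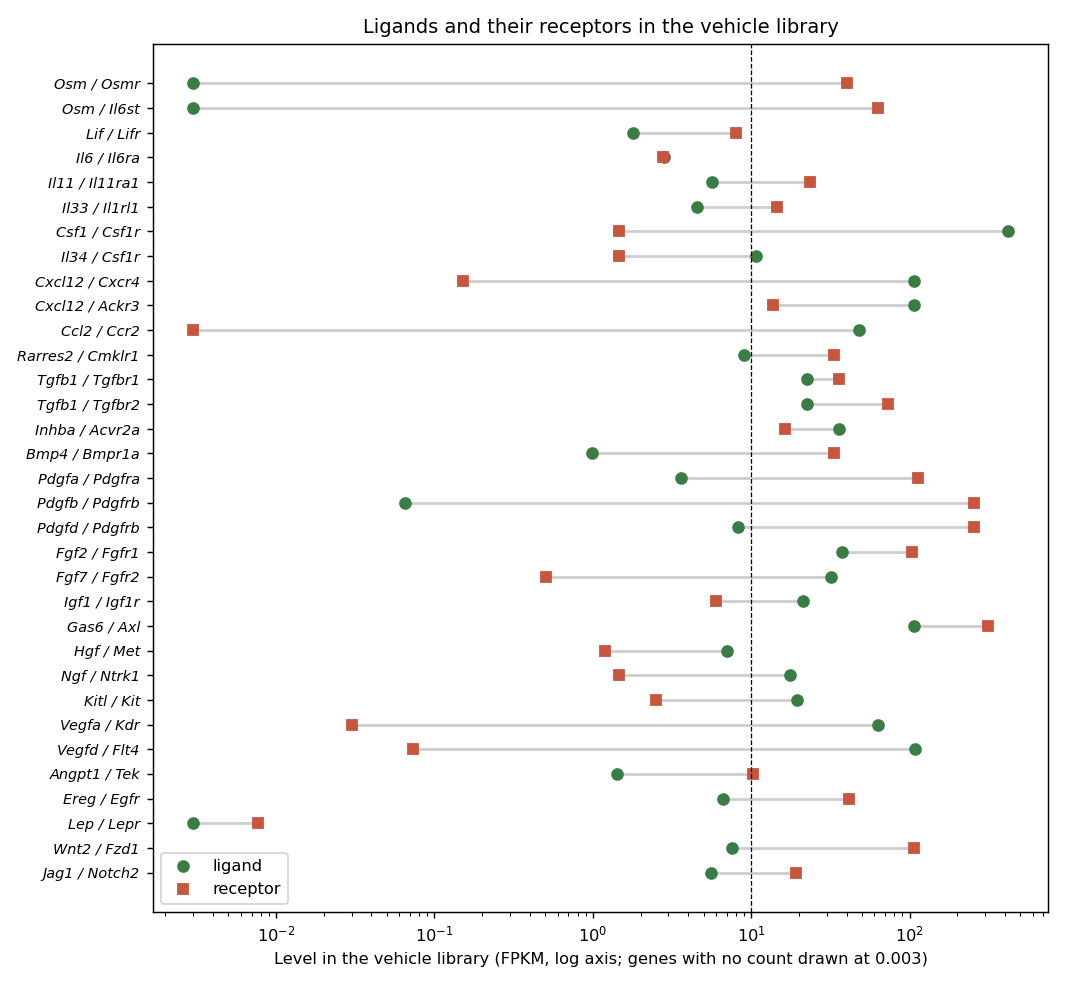
Level of each ligand (green circle) and its receptor (red square) in the vehicle library in FPKM on a log axis, 1 row per pair, with 10 FPKM as a dashed line and genes with no count drawn at 0.003. Osm lies at no count against Osmr at 40.3 and Il6st at 63.4 FPKM, and Csf1 at 416 FPKM lies farthest right of the ligands.

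Few transcription factors reached high levels. By the family column of the deposited table there were 1522, of which 177 (11.6%, beside 19.1% of all protein-coding genes) reached 10 FPKM, 4 reached 100 FPKM and 485 (31.9%, beside 39.8%) were at or under the floor. Their median of 1.05 FPKM was above the 0.587 FPKM of all protein-coding genes. The 4 at 100 FPKM were the stress-response factors Atf5 at 357 FPKM (351 to 363) and Atf4 at 178 FPKM (174 to 182), the RNA- and DNA-binding protein gene Ybx1 at 170.0 FPKM (166 to 174), uncertain with 24.7% of windows shared, and Nfe2l1, which governs proteasome genes, at 121 FPKM (119 to 124). Next came Cebpb at 82.2, Klf4 at 72.5, Ybx3 at 65.4, Srebf1 at 64.9, Jund at 63.8, Zfp36l2 at 61.4, Xbp1 at 58.9 and Srebf2 at 58.9 FPKM. The 20 highest also held Hmga1, Nfe2l2, Klf6, Litaf, Bhlhe40, Mbd3, Rere and Carhsp1, between 47.1 and 56.9 FPKM, of which Hmga1 is uncertain (68.9% of windows shared).

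By family, bZIP factors, which include the ATF, C/EBP, AP-1 and NRF proteins, had 29 of 53 genes (54.7%) at 10 FPKM or more. C2H2 zinc fingers had 34 of 606 (5.61%) and homeobox genes 6 of 225 (2.67%), with 146 of the 225 at or under the floor. No Pou gene of 15 and no T-box gene of 17 reached 10 FPKM.

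Of 40 mesenchymal factors 12 reached 10 FPKM, led by Nfix at 44.3, the Hippo co-activator Wwtr1 (TAZ) at 38.4, Snai1 (Snail) at 30.4, Prrx1 at 29.1, Nfic at 23.6 and Twist1 at 22 FPKM (20.3 to 23.7). Of 26 adipogenic factors 12 did, with Cebpb, Klf4, Srebf1 and Srebf2 ahead of Nr3c1 (the glucocorticoid receptor) at 26.4 and Cebpa at 24.8 FPKM (23.4 to 26.2), and Pparg at 8.64 FPKM (12 per longest transcript). Srebf1 and Srebf2 drive genes of lipid synthesis such as those described above. Of 18 AP-1 and immediate early genes 11 reached 10 FPKM, with Jund at 63.8, Maff at 38.1, Fosl2 at 28.5 and Fosl1 at 19.98 above Fos at 2.82 FPKM (2.34 to 3.37) and Fosb at 0.348 FPKM (0.249 to 0.474).

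Of 40 effectors of signalling pathways 18 reached 10 FPKM. Ctnnb1 (beta-catenin) was at 169, the hypoxia factors Epas1 at 138 and Hif1a at 59.7, Stat3, the main transducer of gp130, at 39.2 FPKM (38.3 to 40.1), Smad4 at 30.2 and Smad3 at 22.5 FPKM (21.6 to 23.4), with Smad2 at 9.71 FPKM (10.5 per longest transcript). Per longest transcript 23 of the 40 would reach 10 FPKM. Ctnnb1, Epas1 and Hif1a have no family in the deposited table's column and are not among the 1522. Lef1 and Hey2 had no count, nor had Stat4, which shared 28.6% of its windows.

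Factors of positional and lineage identity were mostly under 10 FPKM. Of 22 factors tied to visceral or regional mesenchyme no member reached 10 FPKM, with Nr2f1 at 8.96 FPKM (8.36 to 9.59), Nr2f2 at 6.37 FPKM (5.99 to 6.78), Wt1 at 5.99, Gata6 at 5.86 FPKM (5.43 to 6.31) and Tcf21, a visceral stromal factor, at 5.6 FPKM (4.92 to 6.35). The intervals of Wt1, Gata6 and Tcf21 overlapped. Per longest transcript 4 would pass 10 FPKM, Nr2f1 at 14.2, Nr2f2 at 13, Wt1 at 12 and Gata6 at 11.8 FPKM. Tbx15, a factor of subcutaneous fat, had 3 counts. Of 32 factors that define other lineages 29 were at or under the floor and 22 had no count, including Myod1, Sox10, Gata1, Runx3 and Pou5f1.

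Hox genes, whose combination marks position along the body axis, were detected in the middle of the clusters. Of 39, 2 reached 10 FPKM: Hoxc6 at 23.2 FPKM (21.8 to 24.7) and Hoxc8 at 22.6 FPKM (21.3 to 23.9). Hoxa5 at 9.97 FPKM (8.94 to 11.1), Hoxb6 at 8.53 FPKM (7.6 to 9.54), Hoxa7 at 8.34 FPKM (7.58 to 9.15) and Hoxb7 at 8.03 FPKM (7.02 to 9.14) followed, and of 34 pairs of neighbours in the order of level only 3 had separate intervals. Per longest transcript Hoxa7 would reach 11.9 FPKM. Every Hox gene of paralogue groups 10 to 13 was under 1 FPKM, the highest being Hoxc10 at 0.968 FPKM. In the Hoxd cluster Hoxd8 at 6.44 and Hoxd9 at 1.55 FPKM were the detected members, and Hoxd1, Hoxd11 (uncertain, 20.6% of windows shared) and Hoxd12 had no count. Hox genes overlap their neighbours in the annotation (Hoxc9 with Hoxc5, Hoxa6 with Hoxa3), so single values of such genes are uncertain.

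**Figure D4:**
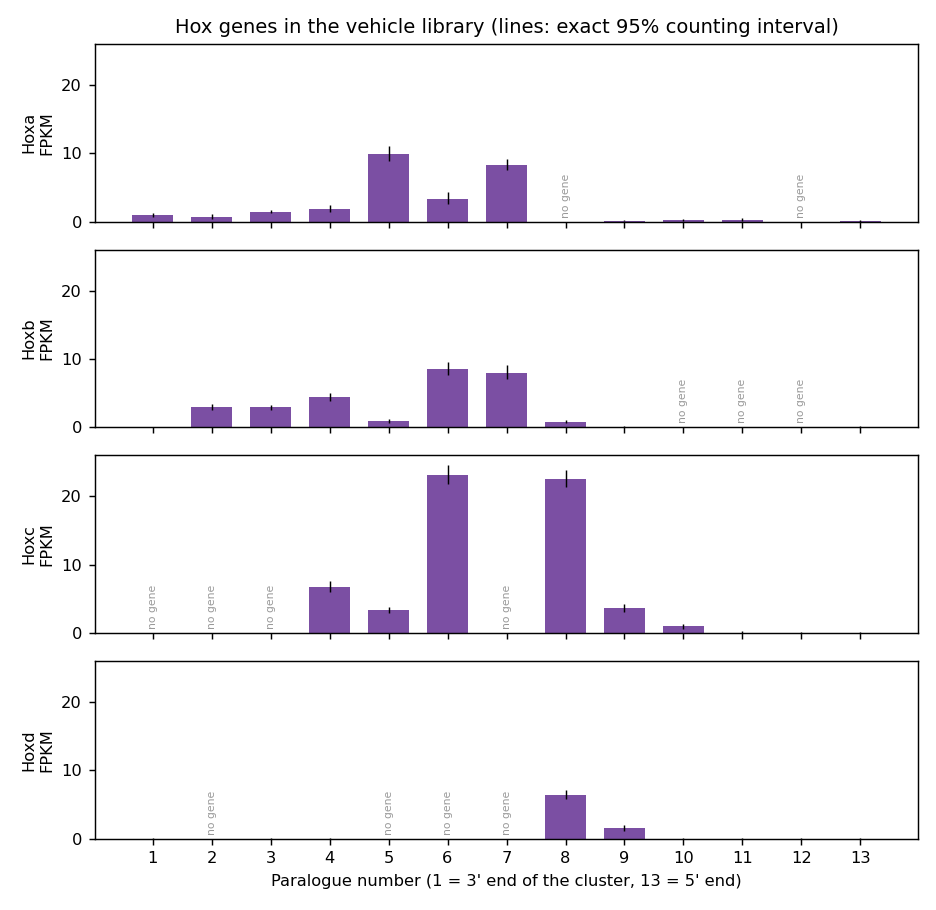
Level of the 39 Hox genes in the vehicle library in FPKM on a linear axis, 1 panel per cluster, by paralogue number, with the exact 95% counting interval as a line. Hoxc6 at 23.2 and Hoxc8 at 22.6 FPKM are the tallest bars, and groups 10 to 13 lie close to 0.

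Genes of cell division were mostly under 10 FPKM, and all those listed were above the floor. Of 20 proliferation genes 2 reached 10 FPKM, Ccnd2 (cyclin D2) at 39.4 FPKM (38.5 to 40.3) and Pcna at 23.6 FPKM (uncertain, 32.7% of windows shared), and Mki67 was at 0.816 FPKM (0.691 to 0.957). At least 1 FPKM was reached by 13 of the 20, and their median was 1.38 FPKM, beside 0.587 FPKM for all protein-coding genes. Of 11 CDK inhibitor and senescence-related genes 7 reached 10 FPKM, with Cdkn1a (p21) at 55.2 FPKM (53.4 to 57), Glb1 (lysosomal beta-galactosidase) at 50.9 and Cdkn2b at 15.6 FPKM, while Cdkn2a (p16 and p19) was at 4.18 FPKM (3.36 to 5.13). The Y-linked genes Ddx3y at 19.2 and Eif2s3y at 9.98 FPKM (22.6 per longest transcript) were detected and Xist had 1 count.

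Neighbouring genes of 1 family differed widely in level. On chromosome 11 the chemokine genes lie in the order Ccl2 (mm39 chr11:81926397-81928279), Ccl7, Ccl11, Ccl12, Ccl8 (chr11:82006011-82007625) and Ccl1, with levels of 47.8, 47.3, 138, 0, 320.4 and 0 FPKM. On chromosome 9 Mmp3 (chr9:7445822-7455975) stood at 638 FPKM among 9 family neighbours of which the highest were Mmp27 at 9.74 FPKM (8.81 to 10.8), 11.3 per longest transcript, and Mmp8 at 4.31 FPKM (3.72 to 4.96). Mmp13 was at 0.448 FPKM (0.28 to 0.678), Mmp10 at 0.284 FPKM (0.13 to 0.54) and Mmp12 at 0.113 FPKM, and Mmp1a, Mmp1b, Mmp20 and Mmp7 had no count. The promoters are shown for a high gene of each cluster and for low or undetected neighbours, from RefSeq on GRCm38.p6, another build than the levels' positions, 100 bases before to 20 bases after the annotated start, on the gene's strand. Capitals mark TATAAA on the gene's strand and TGANTCA, the AP-1 site, which reads the same on both strands. The windows are Ccl8 (chr11:82115085-82115204, +), Ccl12 (chr11:82101745-82101864, +), Mmp3 (chr9:7445722-7445841, +), Mmp10 (chr9:7502242-7502361, +), Mmp13 (chr9:7272414-7272533, +) and Mmp7 (chr9:7691990-7692109, +), the first of its 2 starts in the table, the other of which held neither motif in that span. These neighbours were picked because they hold the motifs: the windows of Mmp8, Mmp27 and Ccl1 held neither, those of Mmp20 and of 1 of 2 Mmp12 starts held both, and the other Mmp12 start held neither.
Ccl8: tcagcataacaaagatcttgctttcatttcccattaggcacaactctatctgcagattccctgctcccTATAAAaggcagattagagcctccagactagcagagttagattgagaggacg
Ccl12: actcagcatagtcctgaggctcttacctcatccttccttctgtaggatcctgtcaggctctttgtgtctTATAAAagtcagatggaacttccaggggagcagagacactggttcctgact
Mmp3: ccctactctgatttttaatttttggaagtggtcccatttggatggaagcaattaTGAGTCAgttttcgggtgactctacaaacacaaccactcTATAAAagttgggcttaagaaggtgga
Mmp10: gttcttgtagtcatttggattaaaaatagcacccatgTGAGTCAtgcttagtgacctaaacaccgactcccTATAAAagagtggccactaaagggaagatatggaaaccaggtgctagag
Mmp13: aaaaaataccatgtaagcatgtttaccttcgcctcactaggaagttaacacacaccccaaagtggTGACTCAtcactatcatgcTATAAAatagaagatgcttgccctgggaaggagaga
Mmp7: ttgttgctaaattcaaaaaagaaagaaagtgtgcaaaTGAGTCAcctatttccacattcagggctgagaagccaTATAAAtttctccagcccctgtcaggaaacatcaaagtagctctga

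Both chemokine windows held TATAAA, 32 bases before the start in Ccl8, at 320.4 FPKM, and 31 in Ccl12, with no count. All 4 metalloproteinase windows shown held both motifs, with TATAAA 7 bases before the annotated start in Mmp3 and 29, 16 and 26 in Mmp10, Mmp13 and Mmp7, and TGANTCA 46 bases before the annotated start in Mmp3 and 63, 35 and 63 in Mmp10, Mmp13 and Mmp7, so these letters were present in windows of the high gene and of low or undetected neighbours. A match is a description of letters and not of binding. Among all 16770 protein-coding genes with a promoter in the table, TATAAA stood 15 to 40 bases before the start in 3.20% and TGANTCA anywhere in the 300-base window in 8.23%. The windows above were marked for TATAAA anywhere, and the matches of Mmp3, Mmp20 and Mmp12 lie outside the 15 to 40 base span. Of the 69 of the 100 highest genes that had one, 4.35% and 11.6% did. GGGCGG, the GC box, on either strand was in 72.5% of those 69 and 50.8% of all, CCAAT on either strand in 37.7% and 42.3%, and CACGTG in 13% and 9.14%.

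**Figure D5:**
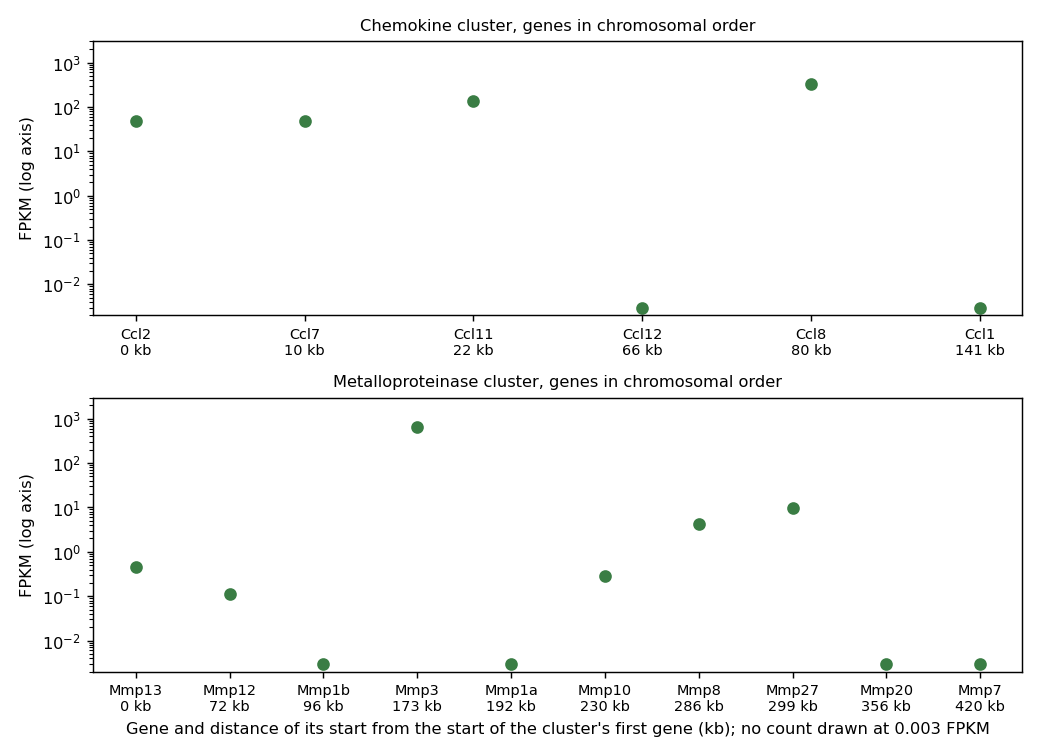
Level in the vehicle library, in FPKM on a log axis, of the genes of the chemokine cluster and of the metalloproteinase cluster in chromosomal order, with the distance of each gene's start from that of the first gene in kb; genes with no count are drawn at 0.003. Mmp3 at 638 FPKM stands above the other genes of its cluster shown, and Ccl8 at 320.4 FPKM lies between Ccl12 and Ccl1, both with no count.

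The vehicle profile was also set beside the other libraries by its own high and undetected genes. Of the 405 genes at 100 FPKM or more, 388 were also at 100 FPKM or more in the Osm library and 343 in the TGF-beta1 library, and 404 and 323 lay within 1.5-fold of the vehicle level. Of its 100 highest genes 96 and 84 were among the 100 highest there. None of the 8755 genes at or under the floor reached 10 FPKM in either library. No library was repeated, so differences between cultures and between treatments cannot be told apart.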

How the data were processed

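The authors deposited whole-number read counts per gene and FPKM values of the same genes for 3 libraries. Per the submitters' processing notes the build was mm39 and the tools CASAVA, HISAT2, HISAT and TopHat2. Not given in the sources used here are their roles, the read counter, the annotation release and the library's strandedness, so genes overlapping on opposite strands cannot be told apart. Polyadenylated RNA was selected, per the labels' protocols. The deposited FPKM equal the counts over gene length and an effective library size 0.293% above the library total. Column Veh was ranked over 21970 protein-coding genes, and exact 95% Poisson intervals of the counts were carried to FPKM, with no test. Computations used scipy 1.17.1 and pandas 2.3.3 in Python 3.11.15, with figures drawn in matplotlib 3.10.9. The interval's code was run on counts simulated from a Poisson law, which cannot test whether that law holds in these data.

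The gene lists (1123 of 1124 symbols found, C5 as Hc) and the library were chosen with earlier results of these data known. Named were the 20 highest genes, the 6 highest members and members at or under 3 counts of each list, ligand and receptor pairs, the 20 highest transcription factors and a fixed set; some genes so chosen are left unreported, and a few others were named after their values were seen. Near-identical copies and transcript lengths were measured in GENCODE M21 transcripts, in 50-base windows sampled every 10 bases. Promoters came from the RefSeq table on GRCm38.p6. Alternatives were TPM, CPM, other bounds, genes without overlaps or near copies, and transcript length.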

Additional observations from a re-analysis of the deposited data

How the results depend on the processing

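A count of genes past a bound moves with the unit. As TPM (3.88 times the FPKM), 8569, 1738 and 120 protein-coding genes reached 10, 100 and 1000, and as CPM, which ignores length, 8835, 2117 and 97. Ranks by CPM and by longest transcript were 85 and 323 for Pdgfra, 13 and 42 for Col1a1, 33 and 17 for Dcn, and 381 and 113 for Ly6a. Of the receptors 113 reached 10 CPM and 41 reached 20 FPKM. Of the ligands 105 reached 10 TPM, 103 reached 10 CPM and 43 reached 20 FPKM, and of the listed transcription factors 108, 104 and 31, with 88 at 5 FPKM. Of the markers of other cell types, 8 at 10 FPKM or more, 16 reached 10 TPM, 18 reached 10 CPM, 13 reached 5 FPKM and 4 reached 20 FPKM. As a percent of the summed level by CPM, and by FPKM without overlapped genes, those markers (0.207% at first) held 0.263% and 0.198%, and the fibroblast markers (2.44%) 3.23% and 2.50%. Under CPM, without overlapped genes and by longest transcript, the 10 highest genes held 7.43%, 7.76% and 6.77%, the 20 highest 11%, 11.6% and 10.3%, and the 100 highest 23.4%, 27.2% and 25.3%. In the same order matrix genes held 14.3%, 11% and 10.6%, receptors 3.28%, 1.87% and 1.60%, ligands 2.12%, 2.60% and 2.09%, transcription factors 1.14%, 0.959% and 0.883%, and ribosomal protein genes 2.95%, 7.52% and 9.10%. Of 62 single lists, the count at 10 moved by over 1.5 times in 27 under CPM, 25 under TPM, 21 at a bound of 20 FPKM and 14 at a bound of 5 FPKM. By longest transcript 3 lists moved, the mesothelial one from 0 to 1, the visceral transcription factors from 0 to 4 and the sex-linked genes from 1 to 2. Without overlapped genes 1 list moved, without near-identical copies 3, and at the lower end of the interval 2, the endothelial list from 1 to 0 and the interleukin list from 2 to 1. The motif shares moved by less than their counting intervals between the 100 and 200 highest genes. Longest transcripts and near-identical copies were chosen as alternatives after seeing the data. Levels by coding length were not run, because no protein table was used here. No paired analysis was possible because each condition has 1 library and no test was made, and no library could be left out. Depth limits genes near the floor, where a count of 3 has limits of 0.619 and 8.77.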
